A study of Sus scrofa with 16 samples.

Results

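Fatty acid desaturases and elongases are the enzymes that reshape dietary and newly made fatty acids, and 8 of their genes were followed in pig liver across 3 dietary fats. The members were chosen by symbol. SCD, FADS1, FADS2 and FADS3 are the 4 desaturase genes, and ELOVL1, ELOVL2, ELOVL5 and ELOVL6 are the 4 elongase genes. Each symbol matched exactly 1 of the 25880 gene identifiers listed for every pig, so all 8 members were found.

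Liver RNA came from 16 crossbred pigs, with 1 library per pig made from the 3′ ends of mRNA. The sires were Duroc x Pietrain crosses, the dams Polish Landrace x Polish Large White crosses, and all animals were fattened from 60 to 118 kg in individual pens. The feeds supplied equal energy and differed in the source of fat, which was rapeseed oil for 5 pigs (group R, 3 gilts and 2 barrows), beef tallow for 5 pigs (group B, 2 gilts and 3 barrows) and coconut oil for 6 pigs (group C, 3 gilts and 3 barrows). Rapeseed oil gave the feed richest in unsaturated fatty acids, beef tallow an intermediate one and coconut oil the most saturated one, and no group went without added fat.

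A desaturase puts a double bond into a fatty acid that is bound to coenzyme A, drawing electrons through cytochrome b5, and an elongase carries out the first, rate-limiting step of adding a pair of carbons to such a chain. SCD and ELOVL6 act on saturated and monounsaturated chains, many of them made in the liver itself. FADS1, FADS2, ELOVL2 and ELOVL5 turn the plant fatty acids linoleic and α-linolenic acid into arachidonic acid and the long omega-3 acids. In liver, SCD and the FADS genes are textbook targets of the factor SREBP-1c and are lowered by dietary polyunsaturated fatty acids.

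Of the reads tallied for each pig, between 705669 and 1767670 were counted on genes, and 15.9% to 30.1% lay outside any annotated gene. The median share of reads with several alignments, which were counted on no gene, was 26.5% in group R, 22.2% on beef tallow and 19.8% on coconut oil. The first principal component, with 19.3% of the variance, lay far from the rest for beef tallow pig 3 alone. Levels are given as CPM, which are counts scaled to library size with TMM factors, and they compare a gene between pigs but not 1 gene with another. The liver label was checked on 7 hepatocyte genes, whose summed level was 66355 to 190235 CPM, although SERPINA1, which encodes α1-antitrypsin, had 7 reads in all pigs together. Adipocyte genes summed to at most 13.8 CPM, with LEP at 0 reads, bile duct genes to at most 19.6, pancreas genes to at most 1.11 and muscle genes to at most 118 CPM.

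No member passed the edgeR adjusted threshold of 0.05 between any pair of diets, and the lowest unadjusted p between diets belonged to FADS2, fitted at 1.41-fold the group R level and 1.58-fold the group B level in the pigs fed coconut oil. Log2 fold changes are those of the second diet over the first one named, and the comparisons share pigs. SCD, FADS1, FADS2, ELOVL5 and ELOVL6 had enough reads to be tested in every comparison, and FADS3, ELOVL1 and ELOVL2 did not. For group R against B, 0 of the 5 tested members were called by edgeR and 0 by DESeq2, where edgeR called 1.11% of the 6318 genes tested, and 1 member had an unadjusted edgeR p under 0.05, beside 15% of all genes. For group R against C, both tools called 0 of 5 members (0.138% of 6528 genes by edgeR), and 1 had an unadjusted p under 0.05 (13% of genes). For group B against C, both called 0 of 5 (0.0587% of 6812 genes by edgeR), again with 1 under 0.05 unadjusted (11.5% of genes). A share of 1 in 5 members therefore stood beside more than 1 in 10 of all genes. In none of the 3 pairs did any member have non-overlapping levels, beside 4.57%, 1.46% and 1.45% of the genes tested in the same order.

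**Figure D1:**
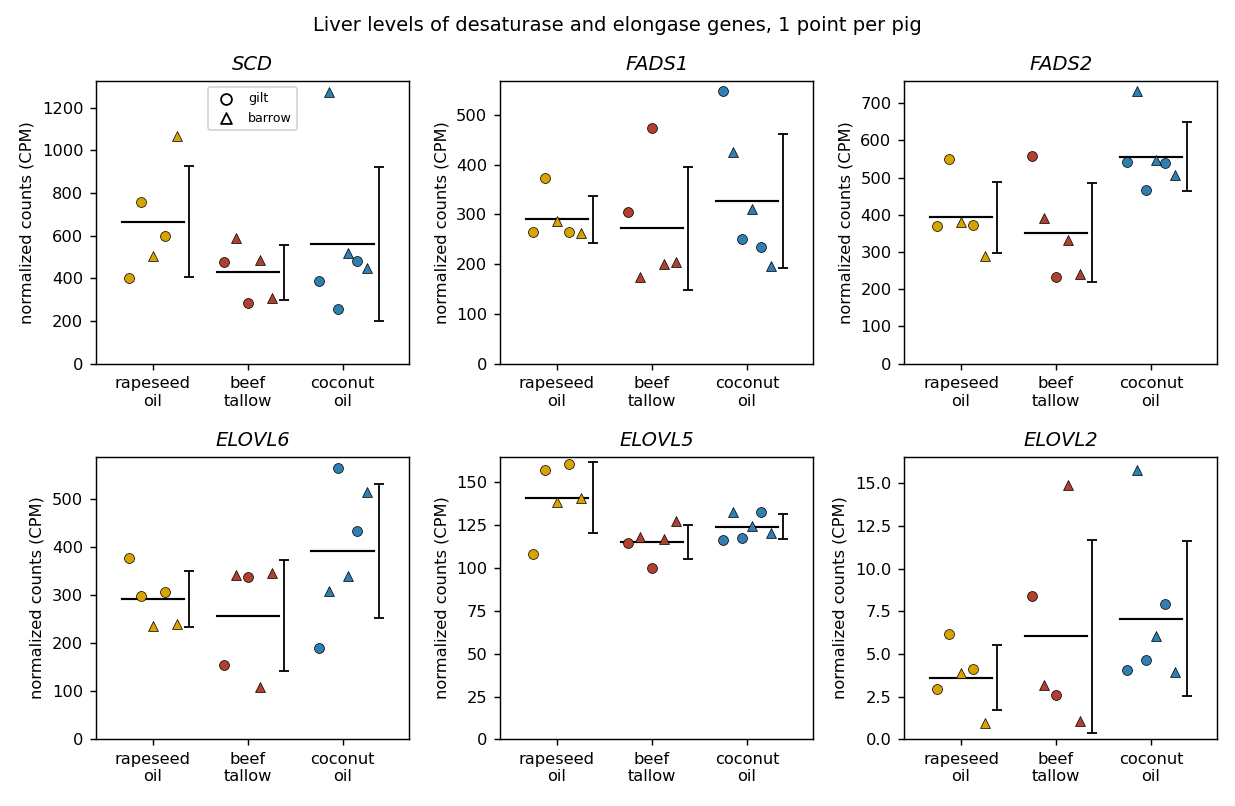
Levels of the 6 member genes with a read in every pig, in CPM, 1 panel per gene and 1 point per pig (circles gilts, triangles barrows), with the mean of each diet as a line and the SD as a bar. The diets overlap in every panel, and the FADS2 points of group C lie between 466 and 734 CPM.

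SCD, on chromosome 14 at 111461560 to 111478033 of Sscrofa11.1, encodes stearoyl-CoA desaturase, which makes oleic acid from stearic acid. The pigs of group R had 403, 758, 503, 599.6 and 1066 CPM. Those of group B had 475, 589, 286, 487 and 307 CPM. Group C ranged from 254 to 1272 CPM with a median of 465. Rapeseed oil pig 5 and coconut oil pig 2, both barrows, stood highest, and every pig of group B lay under the 3 highest pigs of group R, with 2 of 5 under all of group R.

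The mean SCD level was 666 ± 259 (SD, n = 5) in group R, 429 ± 129 (n = 5) for group B and 561 ± 360 CPM (n = 6) in group C. For group B the log2 fold change from group R was -0.64 (SE 0.26, 95% interval -1.19 to -0.08), with an edgeR adjusted p of 0.26 and a two-sided exact permutation p of 0.0873. This value was -0.40 without rapeseed oil pig 5 and -0.52 without beef tallow pig 3. For group C it was -0.25 (SE 0.32) from group R, with an edgeR adjusted p of 0.806, and 0.39 (SE 0.33) from group B, with 0.67. The placing of group C rested on single pigs, since its difference from group R was -0.67 without coconut oil pig 2 and -0.02 without rapeseed oil pig 5, and its difference from group B turned to -0.03 without coconut oil pig 2.

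The 3 FADS genes lie side by side on chromosome 2 of Sscrofa11.1. FADS3 spans 9607627 to 9627352, FADS2 follows after 6.589 kb at 9633941 to 9666666, and FADS1 follows after a further 68.759 kb at 9735425 to 9747405. FADS2 is the delta-6 desaturase that opens the pathway from the plant fatty acids, FADS1 the delta-5 desaturase that makes arachidonic acid, and FADS3 acts on the sphingoid bases of sphingolipids.

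FADS2 had 369, 551, 381, 373 and 290.1 CPM in the pigs of group R. It had 558, 391, 232, 334 and 242 CPM in group B. Group C ranged from 466 to 734 CPM with a median of 541. All 6 pigs of group C lay above 4 of the 5 pigs of each other group, and the overlap came from rapeseed oil pig 2 and beef tallow pig 1, while only coconut oil pig 2 lay above every pig of the other 2 groups.

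The mean FADS2 level was 393 ± 95.7 CPM (SD, n = 5) in group R, 352 ± 133 (n = 5) for group B and 556 ± 92.3 (n = 6) in group C. From group R to C the log2 fold change was 0.50 (SE 0.17, 95% interval 0.14 to 0.85), with an edgeR adjusted p of 0.224 and an exact permutation p of 0.0238. From group B to C it was 0.66 (SE 0.22, interval 0.20 to 1.12), with an edgeR adjusted p of 0.292 and an exact permutation p of 0.0152. Between groups R and B it was -0.16 (SE 0.24, interval -0.67 to 0.35) with an edgeR adjusted p of 0.806. Without beef tallow pig 3 the difference between groups B and C was 0.54, with an edgeR adjusted p of 0.384, and without coconut oil pig 2 it was 0.57. Over the 3 diets in 1 fit, edgeR gave FADS2 an unadjusted p of 0.0106 and an adjusted p of 0.169.

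Marker levels of other cells, given beside FADS2 and not tested between diets, overlapped among the groups. The summed level of 7 Kupffer cell genes, all of them with reads, was 808 to 1348 CPM in group R, 1016 to 1957 in group B and 788 to 1045 in group C. Its medians were 1169, 1157 and 858 CPM in that order, lowest in group C. C1QA had the most reads of the 7, at 8790, followed by CD14 at 3910. The study listed C1QA as lower with coconut oil than with either other fat. The 3 red blood cell genes with an identifier, of 4 listed, summed to 501 to 4577 CPM in group R, 1613 to 2882 in group B and 1261 to 4948 in group C, with medians of 1361, 2081 and 2761. In the same order, the medians were 330, 421 and 367 CPM for sinusoidal endothelium genes. They were 467, 404 and 473 CPM for stellate cell and fibroblast genes, and 110, 96.5 and 103 CPM for lymphocyte genes. The part of any of these cells in the FADS2 levels was not tested. In whole liver, fewer cells of a type and less RNA per cell cannot be told apart.

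FADS1 had 264, 373, 287, 264 and 263 CPM in group R. It had 306, 175, 474, 201 and 204 CPM in group B. Group C ranged from 195 to 548 CPM with a median of 280.4. The group R pigs were close together and lay inside the range of both other groups, whose highest pigs were beef tallow pig 3 and coconut oil pig 1.

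Mean FADS1 levels were 290.2 ± 47.7 CPM (SD, n = 5) in group R, 272 ± 124 (n = 5) for group B and 327 ± 134 (n = 6) in group C. The log2 fold change was -0.09 (SE 0.25, 95% interval -0.61 to 0.44) from group R to B, 0.17 (SE 0.23, -0.31 to 0.65) from R to C and 0.26 (SE 0.29, -0.36 to 0.88) from B to C. The edgeR adjusted p was 0.912, 0.812 and 0.764 in that order, and the directions of the first 2 depended on single pigs. From R to B the value was -0.39 without beef tallow pig 3 and turned to 0.02 without rapeseed oil pig 2, 0.02 without beef tallow pig 2 and 0.00336 without beef tallow pig 4. From R to C it turned to -0.05 without coconut oil pig 1.

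Because FADS2 and FADS1 act in turn on the same fatty acids, the ratio of their reads within a pig was also taken, as a quantity to compare between pigs only. In group R it was 1.40, 1.48, 1.33, 1.41 and 1.10. In group B it was 1.83, 2.24, 0.49, 1.66 and 1.19, and in group C it ranged from 0.991 to 2.59 with a median of 1.81. Group R pigs were alike, whereas the other groups held the lowest and the highest ratios, and beef tallow pig 3 and coconut oil pig 1 were the pigs with fewer FADS2 than FADS1 reads.

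FADS3 was hardly detected, with 14 reads over all 16 pigs, 0 to 2 in each pig and none in 4 pigs. A count of 0 allows up to 1.69 to 4.63 CPM in these libraries, depending on their depth and for counting error only, and no pig exceeded that limit. No difference in FADS3 between diets was detectable at this depth.

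Among the elongases, ELOVL6 lies on chromosome 8 at 112038670 to 112190079 and lengthens palmitic to stearic acid, the substrate of SCD. The pigs of group R had 377, 298, 235, 307 and 239 CPM. Those of group B had 154, 342, 337, 108 and 345 CPM, and group C ranged from 191 to 564 CPM with a median of 386. Group B split into 2 low and 3 higher pigs, and 3 of the 6 pigs of group C lay above every pig of groups R and B.

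The mean of ELOVL6 was 291 ± 58.2 CPM (SD, n = 5) in group R, 257 ± 116 (n = 5) for group B and 391 ± 139 (n = 6) in group C. Group C was higher than group R by 0.42 on the log2 scale (SE 0.23, 95% interval -0.06 to 0.90) and higher than group B by 0.61 (SE 0.31, -0.05 to 1.27). The edgeR adjusted p was 0.46 and 0.473, and the exact permutation p 0.232 and 0.147. Group B differed from group R by -0.18 (SE 0.29), with an edgeR adjusted p of 0.82, and by 0.02 without beef tallow pig 4.

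ELOVL5, on chromosome 7 at 46860768 to 46932945, lengthens the polyunsaturated products of FADS2. Its levels in group R were 108, 157, 138, 161 and 141 CPM. In group B they were 115, 118, 99.8, 117 and 127 CPM, and in group C they ranged from 117 to 133 CPM with a median of 123. The pigs of group C were the most alike, and 4 of the 5 pigs of group R lay above all pigs of groups B and C, while rapeseed oil pig 1 was below most of them.

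On average ELOVL5 stood at 141 ± 20.8 CPM (SD, n = 5) in group R, 115 ± 9.90 (n = 5) for group B and 124 ± 7.20 (n = 6) in group C. Group B differed from group R by -0.29 on the log2 scale (SE 0.16, 95% interval -0.64 to 0.06), with an edgeR adjusted p of 0.421 and an exact permutation p of 0.0476. Group C differed from group R by -0.18 (SE 0.14, -0.48 to 0.11), with an edgeR adjusted p of 0.633. Between groups B and C the difference was 0.11 (SE 0.14, -0.18 to 0.41), with 0.792.

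ELOVL2, on chromosome 7 at 7651707 to 7732353, takes the longest polyunsaturated chains on towards docosahexaenoic acid. It had 102 reads in all and 1 to 18 in a pig. Group R had 2.94, 6.16, 3.88, 4.12 and 0.983 CPM, group B had 8.41, 3.18, 2.63, 14.9 and 1.11 CPM, and group C ranged from 3.94 to 15.8 CPM with a median of 5.34. The groups overlapped, and several of these levels lie at or under the limit that a count of 0 allows. When no genes were left out for low counts, its log2 fold change was 0.72 (SE 0.57) from group R to B, 0.97 (SE 0.49) from R to C and 0.27 (SE 0.48) from B to C, with edgeR adjusted p of 0.64, 0.529 and 0.861.

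ELOVL1, on chromosome 6 at 167881357 to 167886125, makes saturated chains of very great length for sphingolipids. It had 1 read in the whole experiment, in coconut oil pig 4, and none in the other 15 pigs. This is within what a count of 0 allows, so no fold change is given. Whether the 3′ ends of ELOVL1 and FADS3 lie inside the gene models used for counting was not tested.

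**Figure D2:**
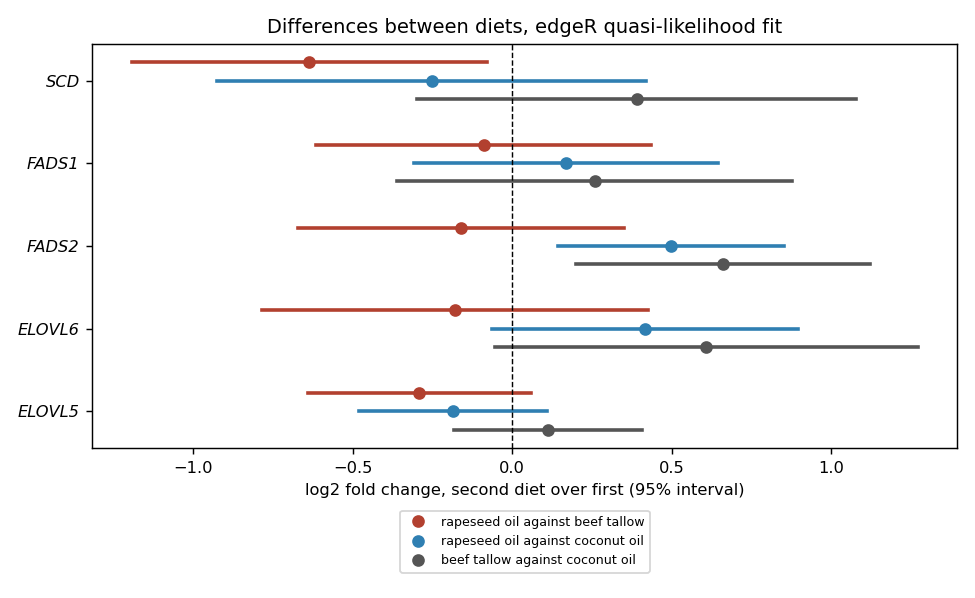
Log2 fold change of the 5 tested member genes in each pair of diets, with the 95% interval of edgeR's quasi-likelihood fit. The intervals of FADS2 (0.14 to 0.85 and 0.20 to 1.12, group C against R and B) and of SCD (-1.19 to -0.08, group B against R) leave out 0 before adjustment over all genes.

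Read by direction, all 5 tested members were lower in group B than in group R, with a median log2 fold change of -0.18 beside 0.01 over all genes tested. In group C, 3 were higher and 2 lower than in group R, with a median of 0.17 beside -0.00. Against group B, all 5 were higher in group C, with a median of 0.39 beside -0.00. Each group enters 2 of these comparisons, and for 12 of the 15 single values the 95% interval includes 0. The directions of FADS1 and ELOVL6 from R to B, of FADS1 from R to C and of SCD from B to C turned with single pigs left out, as given above for each gene. The exact permutation test was run for 15 pairs of a gene and a comparison without adjustment, and 3 gave p under 0.05. It was not run for other genes, so no share over all genes stands beside that count. By edgeR, 15%, 13% and 11.5% of all genes had an unadjusted p under 0.05 in the 3 pairs. The smallest p the permutation test can give is 0.00794 for 5 against 5 pigs. For 5 against 6 pigs, with 462 labellings, it can be lower.

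The feeds can also be set in order of saturation, from rapeseed oil through beef tallow to coconut oil, and each gene's slope per step tested over all 16 pigs. The steps were coded as equal. Per the study's methods, the unsaturated share fell less from rapeseed oil to beef tallow than from there to coconut oil. The polyunsaturated share was nearly the same with rapeseed oil and beef tallow, and lower with coconut oil. No member passed the adjusted threshold by edgeR or by DESeq2 (edgeR called 0.0145% of 6891 genes), and 1 had an unadjusted edgeR p under 0.05 (9.19% of genes). FADS2 had a slope of 0.26 per step (SE 0.11, edgeR adjusted p 0.485), although its group B mean was the lowest of the 3. ELOVL6 had 0.22 (edgeR adjusted p 0.675), FADS1 0.09 (0.894), ELOVL5 -0.09 (0.795) and SCD -0.11 (0.895). In the test of any difference among the diets, both tools called 0 of 5 members (0.711% of genes by edgeR), with 1 under 0.05 unadjusted (15.9% of genes).

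Gilts and barrows were compared with diet in the model, since the sexes were unevenly spread over the diets. Again 0 of 5 members were called by edgeR (0.0786% of 6365 genes) or DESeq2, and 1 had an unadjusted p under 0.05 (4.9% of genes). SCD was 456 ± 165 CPM in 8 gilts and 649 ± 335 CPM in 8 barrows. Its log2 fold change in barrows was 0.58 (SE 0.24), with an edgeR adjusted p of 0.914, and 0.35 without coconut oil pig 2. FADS1 was 339 ± 116 CPM in gilts and 257 ± 83.1 CPM in barrows, with a log2 fold change of -0.43 (SE 0.21) and an edgeR adjusted p of 0.914. FADS2, ELOVL5 and ELOVL6 differed between the sexes by -0.13, 0.05 and -0.13 on the log2 scale, each less than its standard error.

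Whether the diet difference depended on sex was tested by an interaction term in each pair of diets. No member and no other gene was called by edgeR (0% of genes in all 3 pairs), and DESeq2 called 0 members. Only FADS1 for groups R and B had an unadjusted p under 0.05, at 0.0319, beside 3.96% of genes there and 3.98% and 3.52% of genes, with no member among them, for R and C and for B and C. It had an interaction of -0.88 (SE 0.37, edgeR adjusted p 0.999). The 2 gilts of group B had 306 and 474 CPM of FADS1 and its 3 barrows 175 to 204, while group R had 264 to 373 in gilts and 263 to 287 in barrows.

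The members differed in how much they varied among pigs on the same feed. The within-diet SD of the log2 level was 0.61 for SCD, 0.58 for ELOVL6, 0.49 for FADS1, 0.37 for FADS2 and 0.15 for ELOVL5, where the median of 6891 genes was 0.39. SCD thus lay at percentile 87.8 of those genes, ELOVL6 at 84.7, FADS1 at 72.3 and FADS2 at 42.6, and ELOVL5 at 0.595, among the steadiest genes measured. Counting error alone would give a coefficient of variation of 4.04% for SCD and 8.43% for ELOVL5, where those over the 16 pigs were 49.6% and 13.1%.

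**Figure D3:**
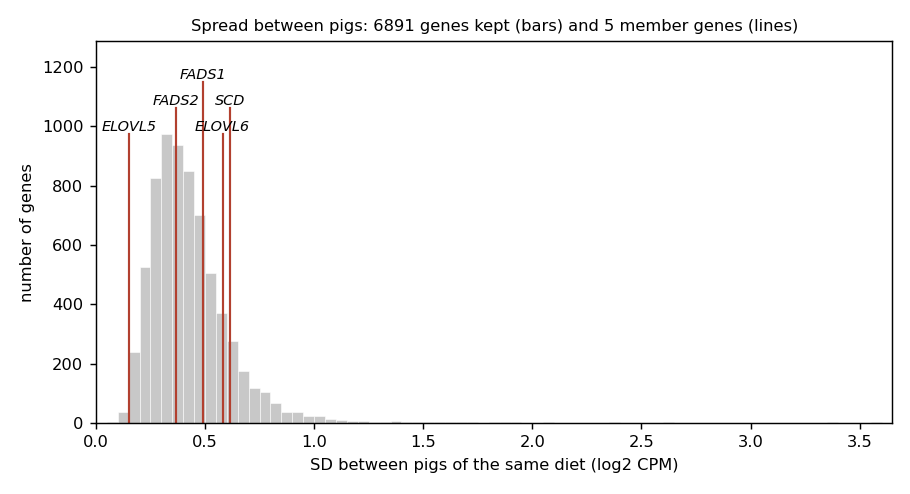
Number of genes by within-diet SD of the log2 level, for 6891 genes over 16 pigs, with the 5 tested member genes as vertical lines. ELOVL5 at 0.15 lies in the left tail, FADS2 at 0.37 near the median of 0.39, and ELOVL6 at 0.58 and SCD at 0.61 on the right.

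The levels of the members were also compared with each other over the pigs. Of the 10 pairs of members, 0 had a Pearson correlation past the adjusted threshold over the 16 pigs. By rank, SCD and ELOVL5 passed it. They had r of 0.59 (permutation p 0.0151, adjusted 0.151) and rho of 0.69 (permutation p 0.00383, adjusted 0.0383). Their r was 0.48 with the diet means subtracted and 0.65 without coconut oil pig 2 and rapeseed oil pig 5, the pigs farthest from the median of SCD. FADS1 and FADS2, neighbours on the chromosome, had r of 0.26 (permutation p 0.326, adjusted 0.839) and rho of 0.35 (permutation p 0.184, adjusted 0.459). That r was 0.15 with the diet means subtracted and 0.60 without coconut oil pig 1 and beef tallow pig 3, so those 2 pigs decided its size. SCD and ELOVL6, which serve successive steps, had r of -0.23 (permutation p 0.399, adjusted 0.839) and rho of -0.36 (permutation p 0.167, adjusted 0.459). Their r was -0.36 with the diet means subtracted and -0.28 without the same 2 pigs as for SCD and ELOVL5.

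**Figure D4:**
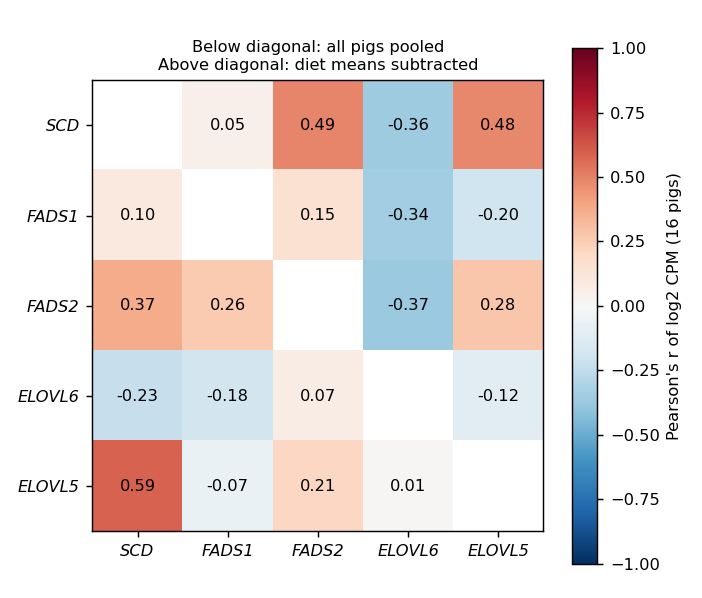
Pearson correlation of log2 levels between the 5 tested member genes over 16 pigs, pooled below the diagonal and with the diet means subtracted above it. The highest pooled value is that of SCD with ELOVL5 (0.59), and subtracting the diet means changes it to 0.48.

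For each tested member, the 3 most similar genes were taken by Pearson r over the 16 pigs among 6890 genes, as a description. The highest of so many values over 16 pigs can be high by chance, and this was not tested. For SCD they were ZFAND6 (0.77), CYP4V2 (0.76), a fatty acid ω-hydroxylase, and MCM6 (0.73), a subunit of the replicative helicase. FADS1 was most similar to GJB1 (0.82), the connexin 32 of hepatocyte gap junctions, DHRS7B (0.78) and PARP14 (0.75), and FADS2 to REX1BD (0.87), HMOX2 (0.81), the constitutive haem oxygenase, and TMEM38B (0.79). Genes similar to ELOVL5 included HEBP1 (0.79) and RAP1A (0.77). ELOVL6 was most similar to RRAGC (0.86), a GTPase of the amino acid sensing pathway, CCDC34 (0.85) and ORMDL3 (0.79), a regulator of sphingolipid synthesis. None of the genes named here stood in the lists of more than 1 member.

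The members work beside other enzymes of fatty acid metabolism, and 67 such genes in 8 lists were read from the same fits, of which 63 had an identifier. For group R against B, edgeR called 1 of the 36 tested higher and 1 lower (1.11% of all genes were called), and 8 were under 0.05 unadjusted (15% of all genes). DESeq2 also called 2 there, ACSM3 and LPIN2, beside 190 of all genes. With coconut oil as the second diet, 0 of 38 were called by edgeR against either other group. Against group R, 5 of them were under 0.05 unadjusted (13% of all genes), and DESeq2 called 2, LPIN2 and MLXIPL, beside 93 of all genes. Against group B, 4 were under 0.05 unadjusted (11.5%), and DESeq2 called 0. In that pair DESeq2 gave several listed genes no adjusted p, so they could not be called. ACSM3 was among them, with a log2 fold change of 1.16 and an unadjusted DESeq2 p of 0.000376. Some listed genes also lacked an adjusted DESeq2 p in the other diet tests. The median log2 fold change of the tested genes was 0.04, -0.04 and -0.01 in the 3 pairs. Over the 3 diets in 1 fit, edgeR called 1 of 39 and DESeq2 called 3 (ACSM3, LPIN2 and MLXIPL), with 6 under 0.05 unadjusted by edgeR (15.9% of all genes). In the order of saturation edgeR called 0 of 39 and DESeq2 called 1 (MLXIPL), with 4 under 0.05 unadjusted by edgeR (9.19%). How many of all genes DESeq2 called in these tests is not given here.

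ACSM3, a mitochondrial acyl-CoA synthetase for medium-chain fatty acids, was the gene that fell. It had 78.0, 72.8, 37.5, 47.4 and 69.8 CPM in group R and 23.7, 38.2, 8.53, 20.2 and 14.4 CPM in group B, and it ranged from 29.9 to 67.2 CPM in group C. Beef tallow pig 2 and rapeseed oil pig 3 alone kept groups R and B from separating. The log2 fold change from R to B was -1.57 (SE 0.33, edgeR adjusted p 0.0305). ACSM3 was also the gene called over the 3 diets, with an edgeR adjusted p of 0.0325. With 1 pig left out the adjusted p for R against B was 0.0194 to 0.0882, and it stayed under 0.05 only without rapeseed oil pig 4, beef tallow pig 2 or beef tallow pig 3.

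LPIN2, which was listed with the acyltransferases but encodes a phosphatidate phosphatase on the way to triglycerides and phospholipids, rose. It had 83.9, 169, 90.5, 157 and 96.4 CPM in group R and 297, 194, 222, 309 and 181 CPM in group B, and it ranged from 174 to 278 CPM in group C. Every pig of groups B and C lay above every pig of group R. Of all genes tested, 4.57% did not overlap between groups R and B, and 1.46% between R and C. LPIN2 is named here because it had passed the threshold in these same data. The log2 fold change from R to B was 1.01 (SE 0.24, edgeR adjusted p 0.0495). The adjusted p was 0.0529 with RLE in place of TMM scaling, 0.0746 with counts thinned to the smallest library and 0.0801 with pigs of the same number as a block. It stayed under 0.05 with DESeq2 (0.00656), without the low-count filter (0.00289) and with at least 10 reads in every pig (0.0411). The same held for all 16 pigs in 1 fit (0.0237) and for sex as a covariate (0.0356). From R to C the log2 fold change was 0.81 (SE 0.20, edgeR adjusted p 0.104), which DESeq2 called at an adjusted p of 0.0246 and edgeR without the low-count filter at 0.0207. For R against B with 1 pig left out, the adjusted p was 0.0308 to 0.147, and it stayed under 0.05 only without rapeseed oil pig 2, rapeseed oil pig 4 or beef tallow pig 3.

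The direct partners of the members and their regulators did not pass edgeR's test. HSD17B12, the ketoacyl-CoA reductase that follows every elongase, differed from group R by -0.71 on the log2 scale in group B (SE 0.26, edgeR adjusted p 0.2) and by -0.56 in group C (SE 0.21, edgeR adjusted p 0.27). The dehydratases of the same cycle, HACD2 and HACD3, differed by -0.11 and 0.05 in group B and by -0.28 and 0.16 in group C. CYB5A, the cytochrome b5 that feeds the desaturases with electrons, differed by 0.08 in group B and -0.26 in group C. Among regulators, MLXIPL, which encodes the carbohydrate sensor ChREBP, differed from group R by -1.15 in group C (SE 0.24, edgeR adjusted p 0.0644), where DESeq2 called it at an adjusted p of 0.00519. INSIG1, a sterol sensor, differed by 0.45 (SE 0.33, edgeR adjusted p 0.62). FASN, the fatty acid synthase that supplies palmitic acid to ELOVL6, differed by -0.66 in group C (SE 0.34, edgeR adjusted p 0.42). The gene of SREBP-1c itself, SREBF1, was listed at 0 reads in all 16 pigs, as were the family members ELOVL3 and DEGS2. Whether the 3′ ends of these genes, or of SERPINA1, lie inside the gene models used for counting was not tested, so a count of 0 in these libraries does not show that a gene was silent.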

How the data were processed

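Per the study's methods, reads were trimmed with FLEXBAR, aligned by TopHat to the pig assembly Sscrofa11.1 and assigned to Ensembl genes by HTSeq. The deposited values are whole-number counts that the authors did not normalize, 1 set per pig. Of 25880 identifiers, 14857 have a symbol in the RefSeq annotation of the same assembly (Sscrofa11.1), which also gave the positions. The 5 tallies of unassigned reads stayed out of library sizes and tests. No 2 of the 16 libraries, which are separate pigs, were identical.

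Each pair of diets was fitted over all genes, without covariates, with edgeR 4.0.16 (quasi-likelihood, R 4.3.3), after TMM scaling and filterByExpr (minimum count 10, minimum total 15). P-values were adjusted by Benjamini-Hochberg over all tested genes, and 0.05 was the threshold. Trend, sex and interaction were fitted likewise. A standard error is the log2 fold change over the square root of F, and CPM values use TMM over all pigs. Exact permutation tests (two-sided) enumerated all labellings, and correlations used 100000 permutations drawn in numpy 2.4.6, with ranks from scipy 1.17.1. Scripts were tested on simulated data.

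The genes named are the 8 members, list genes past the threshold in a diet test, and the 3 genes most correlated with each tested member, of which 1 is not reported here. HSD17B12, HACD2, HACD3, CYB5A, MLXIPL, INSIG1, FASN, SREBF1, ELOVL3 and DEGS2 were chosen from the lists after their values were seen. The members, the lists and the rule were chosen with earlier results of these data known. Alternatives were DESeq2 1.42.0, RLE, no low-count filter, a minimum of 10 reads in each pig, 1 fit over all diets, sex as a covariate, a replicate block, thinned counts and each pig left out. Reads with several alignments were not counted, so genes with close copies are uncertain, and whether counting used strand is not given in the sources used here.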

Additional observations from a re-analysis of the deposited data

Results flagged for a closer look

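In 18 groups of pigs (6 member genes in 3 diets), the highest or lowest pig was compared with the gap that Dixon's criterion allows. For normally distributed values, chance exceeds that gap in about 1 group of 20. The criterion was applied to CPM and not to log2 levels, and that rate was not checked for them. Which pigs lie apart can differ on the log2 scale. Coconut oil pig 2 lay apart as the highest pig of its group in 3 genes, with 1272 CPM of SCD, 734 CPM of FADS2 and 15.8 CPM of ELOVL2. The next pigs of group C had 519 CPM of SCD, 547 CPM of FADS2 and 7.95 CPM of ELOVL2. Rapeseed oil pig 2 lay apart in FADS1 with 373 CPM, where the next pig of group R had 287 CPM.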

How the results depend on the processing

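The number of called members stayed 0 in all comparisons under every alternative run and with each pig left out, and the exact permutation test gave 3 p under 0.05 with RLE as with TMM. The FADS2 adjusted p ranged over the alternatives from 0.141 to 0.403 for group R against C and from 0.1 (DESeq2) to 0.528 (replicate block) for B against C. With 1 pig left out, FADS2 remained higher in group C, by 0.40 to 0.65 over group R and 0.54 to 0.89 over group B. Some uncalled differences turned sign with 1 pig left out. R to B ranged from -0.387 to 0.0211 for FADS1 and from -0.311 to 0.016 for ELOVL6, R to C from -0.0467 to 0.286 for FADS1, and B to C from -0.0301 to 0.533 for SCD. The slope ranged from -0.335 to 0.0137 for SCD (turned without rapeseed oil pig 5) and from -0.0184 to 0.149 for FADS1 (without coconut oil pig 1), and barrows against gilts from -0.226 to 0.0643 for FADS2 (without beef tallow pig 1).

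Pig numbers are shared between diets, but the deviations of same-numbered pigs correlated by -0.25 to 0.145 over 15 pairs, with 2 over 0.1 and 6 pairs best matched to their own number, so the numbers were not taken to pair the pigs. With a replicate block the sex difference of ELOVL5 was -0.055 in place of 0.0519, and the calls over all genes for R against B went from 70 to 35. With 1 pig left out those calls ranged from 9 (without rapeseed oil pig 5) to 149 (without beef tallow pig 3). Over all genes DESeq2 called 190, 93 and 46 genes in the 3 pairs where edgeR called 70, 9 and 4, and without the low-count filter edgeR called 190, 82 and 22. LPIN2 for R against B had an adjusted p of 0.0529 with RLE, 0.0801 with the block and 0.0746 with thinned counts. It stayed under 0.05 with DESeq2 (0.00656), without the filter (0.00289) and with at least 10 reads in every pig (0.0411). The same held for all 16 pigs in 1 fit (0.0237) and for sex as a covariate (0.0356). For R against C, LPIN2 had an adjusted p of 0.0246 with DESeq2 and 0.0207 without the filter. ACSM3 for R against B stayed under 0.05 in these alternatives (6.5e-05 to 0.0481). The causes were not tested. FADS3, ELOVL1 and ELOVL2 had too few reads to be tested with the filter.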
